A study of Mus musculus with 9 samples.

Results

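The Hedgehog pathway genes described here are 3 ligands (Shh, Ihh and Dhh), the receptor Ptch1, the signal transducer Smo, the transcription factors Gli1, Gli2 and Gli3, and Sufu, which holds Gli proteins back in the cytoplasm. They were examined in a list of accessible chromatin regions from wild-type mouse embryos with 6 somites (E8.75, days of gestation). The members of the set were the distinct regions whose assigned gene symbol was one of these 9 genes, which gave 13 regions of 17164 in all. The study profiled pharyngeal mesoderm and heart by ATAC-Seq, a method in which a transposase cuts exposed DNA, in 3 wild-type, 3 Isl1-/- and 3 Isl1Cre+/-/ Brg1fl/fl libraries, the last with loss of the remodeler Brg1 in cells that have expressed Isl1. Only the regions shared by the 3 wild-type libraries were analyzed here, as a single list without any height, score or value per library. No genotypes were therefore compared, no value below has a replicate error, and sequencing depth is unknown.

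Hedgehog ligands bind Ptch1, which otherwise holds Smo inactive. Released Smo acts at the primary cilium to free Gli proteins from Sufu and from proteolytic processing, so that Gli2 mainly activates targets while processed Gli3 represses them. In the early embryo Shh is made by the notochord, floor plate and pharyngeal endoderm. Neighboring mesoderm, including the second heart field that builds the outflow tract and atrial septum, receives the signal, and Ptch1 and Gli1 are themselves targets of the pathway.

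Accessible regions were listed at Smo, Sufu, Gli2 and Gli3, and at none of the ligands. Gli3 had 9 regions, Gli2 had 2, and Smo and Sufu had 1 each. Shh, Ihh, Dhh, Ptch1 and Gli1 had none. A region was thus assigned to 4 of 9 genes (44.4%), beside 10364 of 21031 protein-coding genes (49.3%), so the share of genes with a region lay near that of coding genes in general. A region within 1 kb of the assigned transcription start site (TSS) was present at the same 4 of 9 genes (44.4%), beside 8543 of 21031 coding genes (40.6%), so this share was also near that of coding genes in general. A gene without a region may still have been open in some cells, because a site entered the list after peaks were called per library and those common to the replicates were kept.

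**Figure D1:**
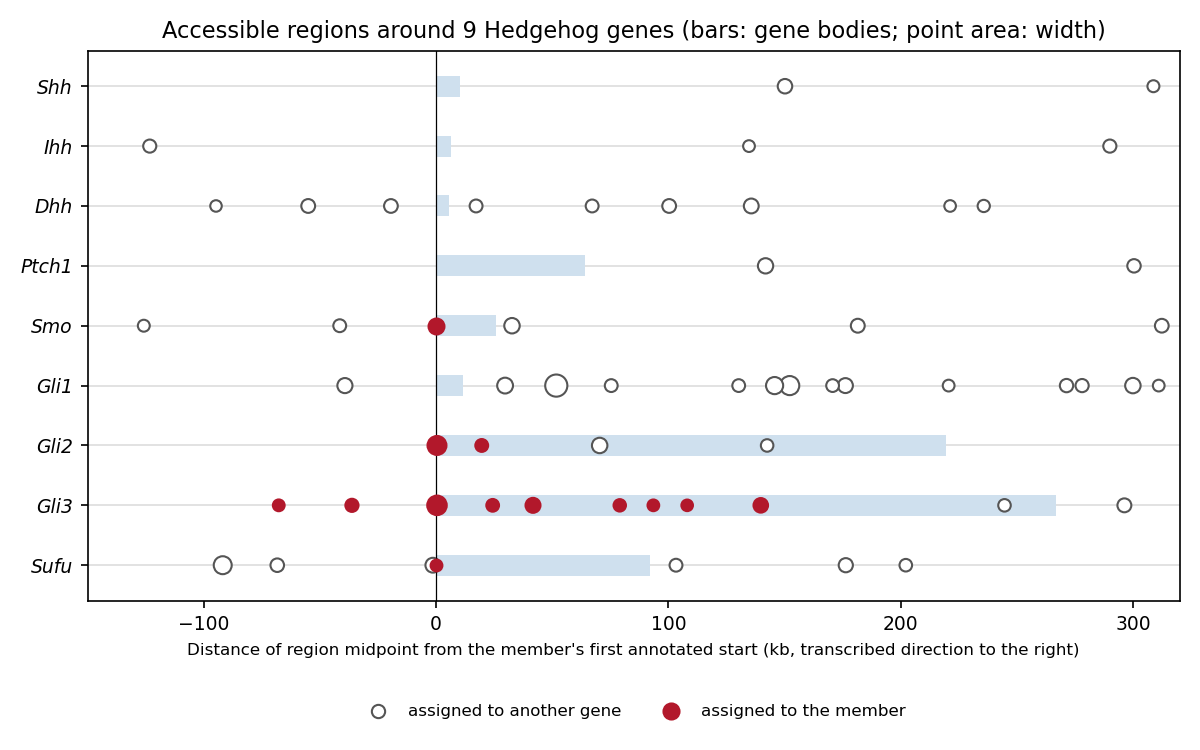
Regions around each of the 9 genes, plotted by the distance in kb of the region midpoint from the first annotated start, with the transcribed direction to the right. Pale bars are gene bodies, filled points are regions assigned to that gene, open points are regions assigned to other genes, and point area is proportional to width; 9 filled points lie along Gli3, while none lie along Shh, Ihh, Dhh, Ptch1 or Gli1.

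The DNA just before the first annotated start is shown for 3 genes with a region there and 3 without, to compare their content of CpG dinucleotides, which mark most promoters that are open in many tissues. Each sequence is the 100 bases before that start in the NCBIM37 genome, the build also called mm9, written in the transcribed direction with CpG in capitals. The sequences were chosen after their values were seen.
Gli3, chr13:15554968-15555067, plus strand, region present: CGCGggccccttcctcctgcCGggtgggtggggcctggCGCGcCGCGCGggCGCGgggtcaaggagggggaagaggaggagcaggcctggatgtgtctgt
Gli2, chr1:120950197-120950296, minus strand, region present: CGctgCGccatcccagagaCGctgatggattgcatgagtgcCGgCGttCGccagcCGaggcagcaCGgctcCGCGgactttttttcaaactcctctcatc
Smo, chr6:29685594-29685693, plus strand, region present: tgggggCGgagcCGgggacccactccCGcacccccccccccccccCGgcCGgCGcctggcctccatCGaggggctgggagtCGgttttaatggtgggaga
Ptch1, chr13:63674475-63674574, minus strand, no region: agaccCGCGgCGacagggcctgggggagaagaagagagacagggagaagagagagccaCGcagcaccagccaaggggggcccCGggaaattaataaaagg
Ihh, chr1:74998247-74998346, minus strand, no region: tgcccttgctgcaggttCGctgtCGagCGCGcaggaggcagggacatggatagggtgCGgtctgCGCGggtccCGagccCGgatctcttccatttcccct
Shh, chr5:28793642-28793741, minus strand, no region: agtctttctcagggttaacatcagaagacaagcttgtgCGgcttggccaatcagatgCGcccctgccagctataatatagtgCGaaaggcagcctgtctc
These 100 bases held 10 CpG at Gli3 and at Gli2, 8 at Smo, 5 at Ptch1, 9 at Ihh and 3 at Shh. Of the genes not shown, Sufu, with a region, held 5, and Dhh and Gli1, without a region, held 8 and 2, so the counts overlapped between genes with and without a region.

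Over the wider window of 500 bp on either side of a start, taking the start with the highest value, Gli3 had the most CpG of the 9 genes, at 12.1 per 100 bp. Ptch1 followed at 11.6 and Ihh at 10.1. Smo had 7.99, Gli2 6.89 and Sufu 6.09, and the lowest values were 4.90 at Gli1, 4.10 at Dhh and 3.90 at Shh. The genes with and without a region therefore overlapped in CpG content. Gli3, Ptch1 and Ihh all fell in the top decile of annotated coding genes, in which 76.2% of 2224 genes had a region with its midpoint within 1 kb of a start. Smo was in decile 8 (71.5% of genes), Gli2 and Sufu in decile 7 (70.4%), Gli1 in decile 6 (65.9%), and Dhh and Shh in decile 5 (52.8%).

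**Figure D2:**
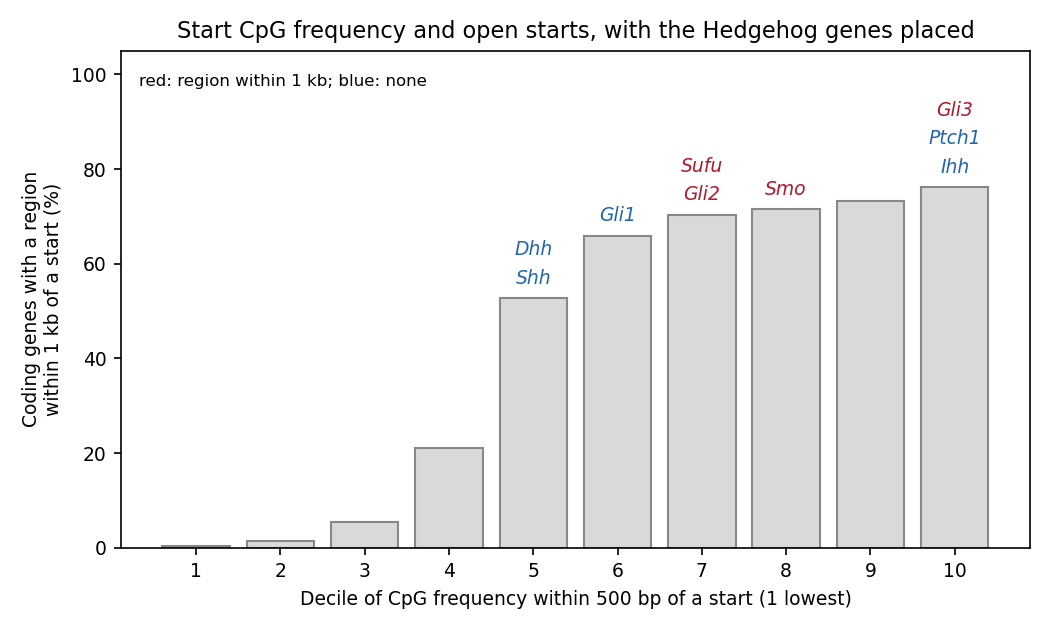
Bars give the percentage of annotated coding genes with a region within 1 kb of a start, by decile of CpG frequency around the start. Names of the 9 genes stand over their decile, in red where the gene had a region within 1 kb and in blue where it had none; Ptch1 and Ihh share the top decile, at 76.2%, with Gli3.

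Among the ligands, Shh patterns the neural tube and signals from pharyngeal endoderm to the heart fields, Ihh acts in endoderm, blood vessels and cartilage, and Dhh in gonads and peripheral nerves. Shh (chr5:28783355-28793641, minus strand) lay inside a stretch of 813903 bp with no listed region. The next region upstream was 664505 bp away and assigned to Rnf32, and the next downstream was 149397 bp away, a region of 1452 bp at the start of Rbm33. Of the 17143 gaps between neighboring regions, whose median was 72839 bp, 356 (2.08%) were at least as long. The stretch held no unsequenced bases and the starts of 3 coding genes, Shh included. Within 1000 kb of Shh, a distance chosen after the data were seen, there were 9 regions. Those upstream were assigned to Rnf32, Lmbr1 and Nom1, and that of Lmbr1 (chr5:29704299-29705652) lay at its start.

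Ihh (chr1:74991891-74998246, minus strand) was also far from listed regions. Its nearest was 122631 bp upstream of the start and assigned to Nhej1, and the nearest downstream was 134166 bp away and assigned to Wnt10a. This free stretch of 256798 bp was matched or exceeded by 15.0% of gaps, and 6.23% of it is unsequenced in this build. Dhh (chr15:98723462-98728971, minus strand) differed, in that regions lay close on either side. The nearest were 16627 bp downstream, at the start of Rhebl1 (chr15:98711198-98712343), and 18792 bp upstream, at the start of Lmbr1l (chr15:98747764-98749065). In all, 6 regions lay within 100 kb of Dhh, and none was assigned to it.

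Ptch1, the receptor that binds the ligands and is itself induced by them, had no region in its body (chr13:63610261-63674474, minus strand). Within 100 kb of the body there was 1 region, 76742 bp from it. This was the nearest one downstream, 140954 bp from the first start, a region of 1619 bp at the start of Fancc (chr13:63531901-63533519). The nearest upstream was 429464 bp away and assigned to Hsd17b3. Measured from any of the 4 coding starts of Ptch1, the nearest midpoint was still 82915 bp away. The stretch without regions spanned 570419 bp, with no unsequenced bases, and 754 gaps (4.40%) were at least as long. Among 2128 coding genes of like length (0.75 to 1.33 times its 64214 bp), 61.2% had an assigned region.

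Smo, the 7-pass protein that carries the signal inward, had 1 region, of 1752 bp (chr6:29684910-29686661). It covered the annotated start of Smo, with its midpoint in a UTR exon, and was wider than 81.8% of the 9083 regions within 1 kb of a TSS. Its GC content was 64.4%, with 7.02 CpG per 100 bp. The body of Smo (chr6:29685694-29711365, plus strand) held no other region, and the next downstream was at the start of Ahcyl2, 31831 bp from the start of Smo.

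**Figure D3:**
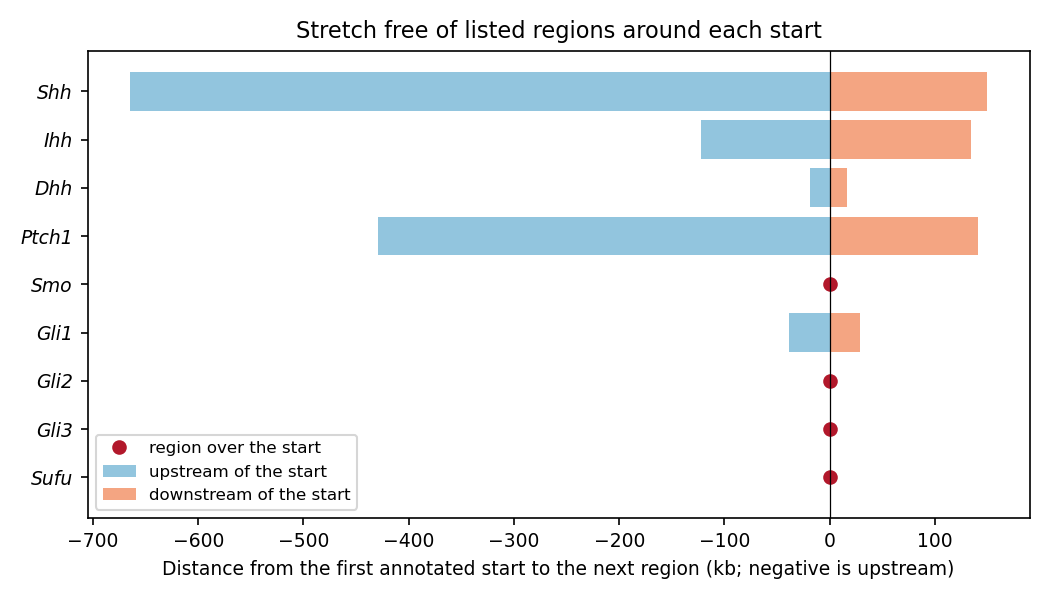
Bars give the distance in kb from the first annotated start to the nearest region upstream (negative) and downstream (positive). Red points mark the 4 genes with a region over the start, for which no bars are drawn. The longest stretches drawn are those of Shh (664505 bp upstream) and Ptch1 (429464 bp upstream).

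Of the 3 Gli factors, Gli1, an activator that is made in response to the signal, had no assigned region (chr10:126766945-126778645, minus strand). It lay in gene-dense sequence, with starts of 10 coding genes within 100 kb of its body, and 4 regions within that distance. The closest were 28819 bp downstream of its start, 1728 bp wide at the start of Mars (chr10:126748098-126749825), and 38452 bp upstream, 1576 bp wide and assigned to R3hdm2. The stretch between these regions was 67272 bp, and 52.6% of gaps were at least as long.

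Gli2, the main activator downstream of Smo, had 2 assigned regions in its body (chr1:120730709-120950196, minus strand). The first was 2480 bp wide (chr1:120948579-120951058), contained 2 annotated starts of Gli2 and was wider than 96.7% of regions within 1 kb of a TSS. The second, 1138 bp wide (chr1:120929995-120931132), lay 19633 bp downstream in intron 1 of 13. At 56.1% GC it was richer in G and C than 92.1% of the 6740 regions beyond 10 kb. A further 2 regions lay in intron 2 of Gli2 but were assigned to the microRNA gene Mir6346, one of 1083 bp (chr1:120807211-120808293) and one of 1649 bp (chr1:120878990-120880638). The wider contained the start of a shorter annotated Gli2 transcript, at position 120879165. It was wider than 95.4% of regions beyond 10 kb, the class set by its distance of 29017 bp to Mir6346. However, its midpoint lay at -649 bp from a Gli2 coding start. Among regions within 1 kb of a TSS, the 75th percentile of width was 1612.5 bp. By nearest coding start, in place of the deposited assignment, Gli2 had 4 regions, and 15.0% of 667 genes of like length had at least as many. By the deposited assignment it had 2, a number reached by 39.6% of those genes.

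Gli3, the main repressor of the pathway, carried 69.2% of the regions of the set and 65.2% of their summed width, 11836 of 18165 bp. In the whole list, 35 of 11541 genes (0.303%) had 9 or more regions, and 20 had more than 9. Among 557 coding genes of like length (0.75 to 1.33 times its 266792 bp), the median was 1 region and 7 genes (1.26%) had at least 9. By nearest coding start, Gli3 had 10 regions, and 4 of those genes (0.718%) had as many. The count at Gli3 is a description of a gene picked from a short list, without a test.

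The promoter region of Gli3 was the widest of the 13, at 2629 bp (chr13:15554136-15556764), and wider than 97.8% of regions within 1 kb of a TSS. It contained 4 annotated starts, had 62.7% GC and held 8.29 CpG per 100 bp, above 84.1% of that class. Upstream of it lay 2 intergenic regions. The farther was 957 bp wide at -68200 bp (chr13:15486878-15487834), and the nearer was 1192 bp wide at -36705 bp (chr13:15518256-15519447).

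The other 6 regions assigned to Gli3 were intronic (gene body chr13:15555068-15821859, plus strand). Intron 2 of 14, which is 70235 bp long, held 3 of them. They lay 23853 bp (1116 bp wide, chr13:15578852-15579967), 41209 bp (1548 bp wide, chr13:15595992-15597539) and 78535 bp (1065 bp wide, chr13:15633559-15634623) downstream of the assigned start. Intron 3, which is 65136 bp long, held the remaining 3, at 93001 bp (944 bp wide, chr13:15648086-15649029), 107546 bp (924 bp wide, chr13:15662641-15663564) and 139220 bp (1461 bp wide, chr13:15694046-15695506). A further region in intron 10, 1085 bp wide (chr13:15799114-15800198), was assigned to the noncoding gene 4933412O06Rik, although its nearest coding start was that of Gli3. The 9 regions spanned 208629 bp with gaps between neighbors from 13462 to 36019 bp (median 26254 bp), all shorter than the median gap of the list.

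The 8 distal regions of Gli3 were narrower than its promoter region, with a median of 1090.5 bp and a range of 924 to 1548 bp. They were also poorer in CpG, with a median of 0.945 per 100 bp and a median GC content of 47.0%. Each of these differences follows the general pattern of the list, in which the 6740 regions beyond 10 kb had medians of 937 bp, 46.8% GC and 1.25 CpG per 100 bp, and the 9083 within 1 kb had 1294 bp, 58.1% and 5.93. Within the distal class, the Gli3 regions at 41209 and 139220 bp were wider than 93.9% and 92.1% of regions. The narrowest, at 107546 bp, was wider than 48.0%.

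The 300 bases at the center of the region at 41209 bp are shown because it was the widest distal region of the set. Those of the regions at 139220 bp and -36705 bp are shown because they were the only centers among the 13 with the letters CTAATG, a hexamer with the TAAT core that homeodomain factors such as Isl1 recognize. Such a match was in 2 of the 9 distal centers, beside 12.0% of all centers beyond 10 kb. The center of the wider intron 2 region of Gli2 is shown for a match to TGGGNGGTC, a relaxed Gli motif, and holds AGATAA on the minus strand. All are on the plus strand of NCBIM37, and capitals mark the motifs named here. The last 3 were chosen after their values were seen.
Gli3 intron 2, chr13:15596616-15596915, no motif marked: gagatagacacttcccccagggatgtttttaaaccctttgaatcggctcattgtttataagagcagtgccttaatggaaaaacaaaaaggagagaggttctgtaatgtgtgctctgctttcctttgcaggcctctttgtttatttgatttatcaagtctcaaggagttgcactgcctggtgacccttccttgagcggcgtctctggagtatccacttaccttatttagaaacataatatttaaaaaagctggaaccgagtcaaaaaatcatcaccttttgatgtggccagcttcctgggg
Gli3 intron 3, chr13:15694627-15694926, CTAATG marked: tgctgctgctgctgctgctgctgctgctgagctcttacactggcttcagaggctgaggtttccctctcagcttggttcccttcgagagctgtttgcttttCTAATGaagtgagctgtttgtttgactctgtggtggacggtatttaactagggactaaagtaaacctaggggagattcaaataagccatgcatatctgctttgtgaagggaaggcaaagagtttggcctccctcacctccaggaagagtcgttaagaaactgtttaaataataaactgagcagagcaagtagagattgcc
Gli3 upstream, chr13:15518702-15519001, CTAATG marked: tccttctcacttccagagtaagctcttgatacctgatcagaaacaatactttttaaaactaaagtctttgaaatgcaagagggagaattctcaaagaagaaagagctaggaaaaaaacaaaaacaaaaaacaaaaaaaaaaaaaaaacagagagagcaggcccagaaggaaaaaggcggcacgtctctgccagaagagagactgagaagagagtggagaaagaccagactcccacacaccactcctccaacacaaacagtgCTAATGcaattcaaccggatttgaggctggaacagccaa
Gli2 intron 2, chr1:120879665-120879964, both motifs marked: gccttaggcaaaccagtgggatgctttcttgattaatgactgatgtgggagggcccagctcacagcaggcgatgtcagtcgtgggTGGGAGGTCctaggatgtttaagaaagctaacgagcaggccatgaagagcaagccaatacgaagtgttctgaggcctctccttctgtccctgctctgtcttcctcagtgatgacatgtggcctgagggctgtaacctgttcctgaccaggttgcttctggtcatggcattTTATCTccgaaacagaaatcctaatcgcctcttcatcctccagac
The intron 3 sequence opens on a simple repeat, and the upstream sequence contains a long run of A.

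Motifs were counted as exact letters on both strands. The Gli motif TGGGTGGTC, the sequence Gli proteins recognize, was found in 0 of the 13 regions, neither in the 300 bases at their centers nor over their whole width, and the relaxed form TGGGNGGTC, which includes the first, was found in 0 as well. This says only that these letters are not in the sequences searched. Across all regions, TGGGTGGTC was in 0.373% of centers and 1.27% of whole regions, and TGGGNGGTC in 1.31% and 4.46%. The intron 2 region of Gli2 assigned to Mir6346 held TGGGAGGTC at 64 bp to the left of its center (chr1:120879750-120879758). On the minus strand, it held AGATAA, the letters that factors of the Gata family recognize, at 106 bp to the right. Both matches lay in the 300 bases at its center. Taken whole, the region held AGATAA at 2 positions and CTAATG at 3.

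Other short motifs occurred at shares that depend on class. In the 9 distal regions of the set, taken whole, CTAATG was in 4, beside 32.9% of all regions beyond 10 kb. AGATAA was in 3, beside 43.6%, and GGAATG, the letters that TEAD factors recognize, in 5, beside 49.9%. All 4 promoter regions held GGGCGG, the core of Sp factor sites, as did 89.9% of all regions within 1 kb. In the 300 bases at the center, AGATAA was in 1 of the 9 distal regions, beside 15.5% of all regions beyond 10 kb. That match was in the Gli3 region at 107546 bp. At the centers of the 4 promoter regions AGATAA was in 0, beside 3.24% of all regions within 1 kb.

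In the promoter class, the widths ran from 2629 bp at Gli3 and 2480 bp at Gli2 to 1752 bp at Smo and 959 bp at Sufu, with a median of 2116 bp beside 1294 bp for all regions within 1 kb. Of the 13 regions, 9 (69.2%) lay beyond 10 kb, beside 6740 of 17164 (39.3%) in the list, and Gli3 held 8 of the 9. These 9 distal regions had a median width of 1116 bp beside 937 bp for the class. No replicate values exist against which to judge these differences.

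**Figure D4:**
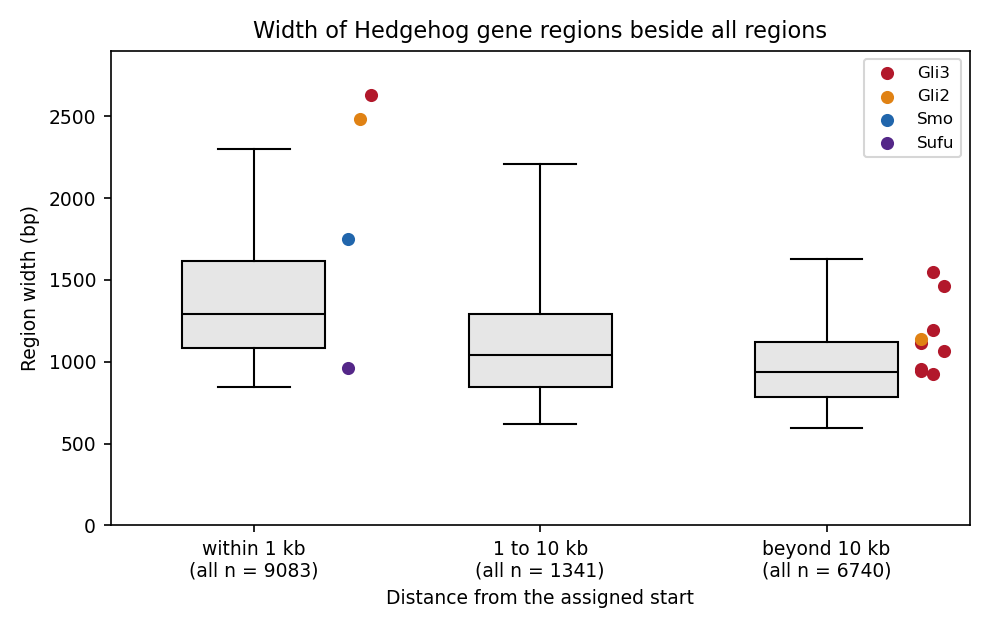
Width in bp of the 13 regions (points, colored by gene) beside all regions of the same distance class (boxes give the quartiles and median, whiskers the 5th and 95th percentiles). The promoter regions of Gli3 (2629 bp) and Gli2 (2480 bp) lie above the whisker, and that of Sufu (959 bp) lies below the box.

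Sufu, the inhibitor that binds Gli proteins, had the narrowest promoter region, of 959 bp (chr19:46471045-46472003), wider than 12.7% of the class. It covered 5 annotated starts of Sufu (chr19:46471386-46563294, plus strand), with 58.0% GC and 6.26 CpG per 100 bp. A separate region assigned to Actr1a (chr19:46469228-46470745, 1518 bp) ended 640 bp upstream of the first start of Sufu. No other region lay in the body of Sufu.

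Every one of the 13 regions had as its nearest coding start a start of the gene it was assigned to, and 93.5% of 14162 regions in the list with an annotated symbol did. With that nearest start in place of the deposited assignment, 16 regions belonged to the set, the 3 additional ones being those in the introns of Gli2 and Gli3. The same 4 genes were the ones with a region.

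Of 36 other genes of the pathway, 24 (66.7%) had an assigned region, beside 49.3% of all coding genes, and 16 (44.4%) had it within 1 kb of the TSS, beside 40.6%. The lists are short and were not tested. All 7 genes for coreceptors and other ligand-binding proteins had a region. Hhip, a decoy receptor that is also a target of the pathway, had 3, all beyond 10 kb, from -195977 to 122102 bp, the widest 1645 bp. Cdon, a coreceptor, had 3 as well, all upstream between -79588 and -30460 bp. Lrp2, an endocytic receptor that binds Shh, had 2, including 1 of 1578 bp at 52 bp from its TSS.

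All 6 genes of Gli turnover had exactly 1 region, each within 1 kb of the TSS, where 40.6% of all coding genes had a region. This list is short and was not tested. The widest were those of the kinase gene Gsk3b (2602 bp), of Spop, an adaptor for ubiquitination of Gli proteins (1768 bp), and of Cul3, its ligase scaffold (1757 bp). Among 10 genes of the cilium and of signal passing, 6 had a region, beside 49.3% of all coding genes. Arl13b, a ciliary GTPase, had 2, Gpr161, a ciliary receptor that opposes the pathway, had 1 of 2379 bp at -13295 bp, and Tulp3, which brings receptors into the cilium, had 1 of 1521 bp at 48 bp. Stk36, Kif3a, Evc and Evc2 had none. Of the 3 genes for ligand release, Hhat, the enzyme that adds palmitate to the ligands, had 1 region at 25298 bp, and Disp1 and Scube2 had none.

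Of 10 target genes, 4 had a region, near the 49.3% of all coding genes, and they held 11 regions in all. Mycn, which drives proliferation, had 5, including 1 of 1941 bp at -424 bp. Foxa2, a floor plate and endoderm factor, had 4, none within 1 kb, the widest of 1672 bp at 139239 bp. Bcl2, a survival gene, had 1 of 1856 bp at its TSS, and Ccnd1 also had 1. The mesodermal forkhead genes Foxf1a, Foxf2 and Foxl1, the ventral neural factor Nkx2-2, the mesodermal factor Osr1 and the cyclin gene Ccnd2 had none. The median was 1 region per gene over the 36 genes and 0 over all coding genes.

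**Figure D5:**
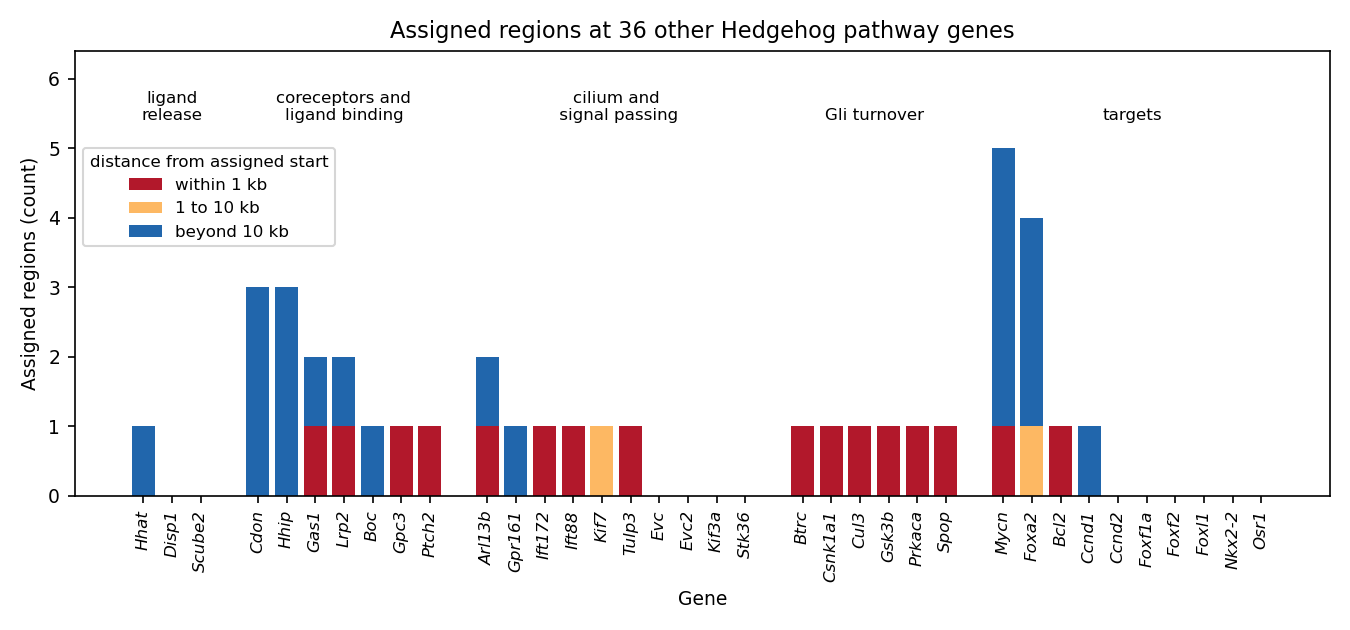
Number of assigned regions at each of 36 other Hedgehog pathway genes, by list, with colors for the distance from the assigned start. All 6 Gli turnover genes have 1 region within 1 kb, where 40.6% of all coding genes have a region, and Mycn has the most, with 5.

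A few genes holding most of the regions was also seen in other signaling families, given side by side without a test. Of 10 Notch pathway genes, 5 had a region, and Jag1 held 8 of their 15. Of 12 retinoic acid genes, 3 had a region, and Rarb held 7 of their 9. The share over all coding genes was 49.3%. Gli3 held 9 of 13 here. The tissue label was set beside marker genes, for which a region gives no level of RNA. Regions were assigned to 5 of 8 cardiac and second heart field markers (9 at Isl1, none at Nkx2-5, Tbx5 or Tnnt2), 2 of 4 of pharyngeal mesoderm, 2 of 4 of foregut endoderm, and 3 of 5 of neural tube and notochord. With 49.3% of all coding genes having a region, these counts do not separate the cell types, and which cells carried the Hedgehog gene regions cannot be told apart.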

How the data were processed

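The authors dissected pharyngeal mesoderm and heart of E8.75 embryos for ATAC-Seq, and the values analyzed are the deposited region bounds and distances to a TSS, in bp. According to the paper's methods, reads were mapped to mm9 with bowtie2, duplicates were removed with Picard 1.136, and peaks were called per library by MACS14 without a model and with a fixed shift. Blacklisted peaks were removed, and bedtools 2.15 kept regions shared by the replicates. The program that assigned genes is not given for these regions in the sources used here. Shared peaks favor strong sites, and width rises with depth, which is unknown.

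Rows with the same bounds were counted once, and the 17432 rows gave 17164 regions. Coordinates were taken as 1-based. Gene structure and sequence came from NCBIM37 with GENCODE starts, and no region ended beyond its chromosome. Distances are the deposited ones unless a first annotated start is named, and these differ by the choice of transcript. Coding genes were those with a curated transcript in the RefSeq table of GRCm38.p6, used for names only, and the Hedgehog, Notch and retinoic acid genes had the same count by gene and by symbol (marker genes were not checked). Like length means 0.75 to 1.33 times. Functions for motifs, CpG and nearest starts were tested on simulated data. Members, lists and motifs were chosen with earlier results of these data known. In each pathway list, the 3 genes with the most regions, ties broken by the widest, and every gene with none are named; Ccnd1, Jag1 and Rarb were named after their values were seen. Nothing was tested between groups. Alternatives were wider regions only, all rows, merging, nearest starts and other distances, windows and motif letters. All value columns were mapped. Python 3.11.15, numpy 2.4.6, pandas 2.3.3, pysam 0.24.0 and matplotlib 3.10.9 were used.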

Additional observations from a re-analysis of the deposited data

How the results depend on the processing

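No paired analysis was possible because 1 list stands for all wild-type replicates and carries no replicate number, and leaving out a library was not possible for the same reason. Of 23 alternative values, 18 stayed within 1.5 times the main count or within 10% of the main median, and 5 moved. Restricting the list to widths of 1123 bp (the median) or more left 7 of the 13 regions, 4 of the 9 beyond 10 kb, and 3 of the 4 genes, Sufu being lost. Counting as distal only what lay beyond 50 kb left 5 regions. Around the 9 gene bodies, 35 regions within 100 kb became 60 within 250 kb and 202 within 1000 kb, by construction of the wider windows. Merging changed nothing because no regions overlap, and using all rows changed nothing because no row of the set was repeated. Limits of 2 kb and 5 kb could not change a count or median, because no region of the set lay between 1 and 10 kb. These unchanged values are therefore no sign of stability. Since depth is unknown, neither widths nor missing regions can be weighed against it.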
